A study of Mus musculus with 42 samples.

Results

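The kidneys of mice that lacked Tsc2 in the tubular epithelium were compared with kidneys that lacked both Tsc2 and Tfeb, all from vehicle-treated animals. The 6 libraries, 3 labelled as Tsc2 knockout (Tsc2 KO) and 3 as double knockout (DKO), were chosen by their genotype and treatment labels from the 42 libraries of the series. Each library was made from polyadenylated RNA of kidney tissue, holding all its cell types, of mice on a C57BL/6 background at postnatal day 50. The labels number the replicates without saying from which animal each came. In both groups the floxed alleles were removed by KspCre, a Cre recombinase driven by the cadherin 16 promoter, which is active in tubular epithelial cells and leaves stromal, vascular and immune cells of the kidney with intact genes. By their labels both groups therefore carried Cre and lacked Tsc2, and Tfeb was the allele in which they differed. Both had received 11 injections of the vehicle used for rapamycin, starting on day 25. The 3 vehicle-treated control kidneys of the same cohort, labelled wild type and Cre-negative by the study's methods, serve here as a reference level. The 9 rapamycin libraries (1 mg/kg) entered the statistical fit only to help estimate the spread between replicates. A second set of KspCre mice at day 50 that had received no injections held 3 Tsc2 KO and 3 DKO kidneys and shares no library with the first.

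TSC2 is a subunit of the tuberous sclerosis complex, which switches off the GTPase Rheb and thereby the growth-controlling kinase complex mTORC1. TFEB is a transcription factor of the MiT/TFE family that binds short palindromic E-boxes (the CLEAR motif) in the promoters of genes for lysosomal enzymes, the proton pump of the lysosome, autophagy proteins and the Rag GTPases that bring mTORC1 to the lysosome. In amino acid-fed cells mTORC1 keeps TFEB in the cytoplasm through the folliculin and Rag arm of the pathway. Mouse kidneys without Tsc2 in the tubules become large and cystic, so the comparison asks which transcripts of such kidneys change when Tfeb is removed as well.

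The 6 libraries held between 17455925 and 22228206 counts on genes, and the 3 vehicle controls between 17326309 and 20077360. Between replicates the chi-square per gene was 15.2 to 80.2, where counting noise alone would leave it near 1, so the spread between replicates rather than the depth set the precision. Xist was detected in all of them and the 4 Y-linked genes summed to at most 1 count in the 6 libraries, so sex did not separate the groups. Markers of kidney tubules were high in every library, the proximal tubule list summing to at least 8212 CPM (counts scaled to library size). Beside the kidney transcripts, 4 of the 6 libraries carried transcripts of the adrenal gland. The 8 steroidogenic genes that define adrenal cortex (Star, Cyp11a1, Cyp11b1, Cyp11b2, Cyp21a1, Hsd3b1, Mc2r and Akr1b7) summed to 4928, 162 and 7.85 CPM in the Tsc2 KO libraries, to 806, 12549 and 7.29 CPM in the DKO libraries, and to 8.02 to 9.79 CPM in the controls. Only Tsc2 KO replicate 3 and DKO replicate 3 were at the level of the controls. Each group thus held 2 libraries with adrenal transcripts. The part of these transcripts in single results was examined by adding the adrenal sum as a covariate and by leaving out the 4 libraries, which leaves 1 kidney against 1 with the spread taken from the other groups.

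**Figure D1:**
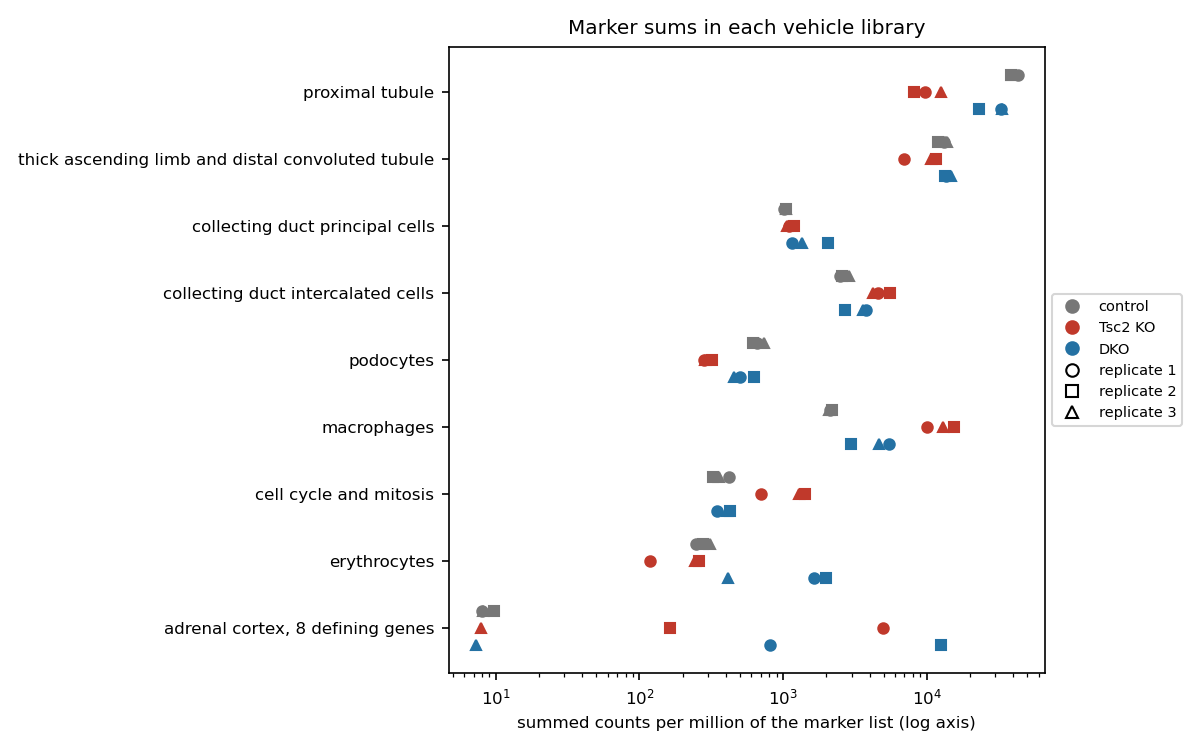
Summed CPM (log axis) of marker gene lists in each vehicle library, with control in grey, Tsc2 KO in red and DKO in blue and the replicate given by the symbol. Proximal tubule sums of the DKO libraries (23222 to 33179.5 CPM) lay between those of Tsc2 KO (8212 to 12483 CPM) and control, and the adrenal sum was high in replicates 1 and 2 of both knockout groups.

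Tfeb followed the labels, while Tsc2 was lowered in both knockout groups but not equally. Tsc2 (ENSMUSG00000002496, chromosome 17, 24595816 to 24632630, mm10) was at 4.47, 3.92 and 3.80 FPKM in the Tsc2 KO kidneys, 5.53, 6.41 and 6.29 FPKM in the DKO kidneys and 8.59 to 9.81 FPKM in the controls. Both knockout groups were below every control without reaching 0. The DKO kidneys were all above the Tsc2 KO kidneys (log2 fold change 0.58 ± 0.10, edgeR adjusted p = 0.000843), and the log2 difference was 0.47 in the uninjected mice (adjusted p = 0.166). The part of this Tsc2 difference in other results was not tested, and it cannot be told apart from the loss of Tfeb. Tfeb (ENSMUSG00000023990, chromosome 17, 47737030 to 47792419) was at 6.09, 5.98 and 5.58 FPKM in the Tsc2 KO kidneys, 3.18, 2.65 and 2.57 FPKM in the DKO kidneys and 3.89 to 4.70 FPKM in the controls, so that it was lowest in the DKO libraries and highest in the Tsc2 KO libraries without overlap (log2 fold change -1.07 ± 0.18, edgeR adjusted p = 0.000667). Of the other 3 MiT/TFE factors (Tfe3, Mitf and Tfec) none was called. Their log2 fold changes were -0.34, -0.18 and 0.49.

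Differential expression was tested with edgeR's quasi-likelihood test on the deposited counts of all 18 libraries of the cohort, with Benjamini-Hochberg adjustment over the 17027 genes tested. Calls were limited to the 7950 genes with a mean of 5 FPKM or more (fragments scaled by transcript length and library size) in Tsc2 KO or in DKO kidneys, and required an adjusted p no greater than 0.05. By this rule the DKO kidneys had less RNA of 1003 genes (12.6% of the 7950) and more of 1345 (16.9%), and such genes are called lower and higher. These shares are the background for the count of every gene list, of which only members at the FPKM minimum could be called. A gene could meet the minimum through only the group where it was high, which favours calls in that direction. Fold changes below are log2 values of DKO minus Tsc2 KO with their standard error, and levels are FPKM as deposited. In bulk tissue fewer cells of a type and less RNA per cell cannot be told apart. With the adrenal sum as a covariate 991 genes were lower and 1391 higher, of which 944 and 1312 were among the genes called without it. With the 4 adrenal-bearing libraries left out, 63 were lower and 300 higher, and 53 and 297 of these were shared with the full comparison. All 1003 lower and 1343 of the 1345 higher genes kept their sign in that fit. This is no independent support, since its 2 kidneys were among those that chose the genes. The groups did not overlap for 973 of the lower and 1261 of the higher genes, and for 3691 of all 7950 genes at the FPKM minimum. As higher that fit called 18 proximal tubule genes against 25 in the full comparison, 4 against 18 for fatty acid oxidation, 0 against 14 for nuclear oxidative phosphorylation and 2 against 9 for the mitochondrial genome. As lower it called 4 against 11 for the cell cycle, 3 against 15 for tubular injury, 3 against 10 for macrophages, 2 against 11 for extracellular matrix and none of the lysosomal hydrolases, V-ATPase subunits, autophagy, Rag or ATF4 genes. Without injections, 823 of 1002 lower genes with a value had the same sign (82.1%) and 913 of 1345 higher genes (67.9%), while 58.0% of all 7935 genes at that level were lower in DKO there.

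**Figure D2:**
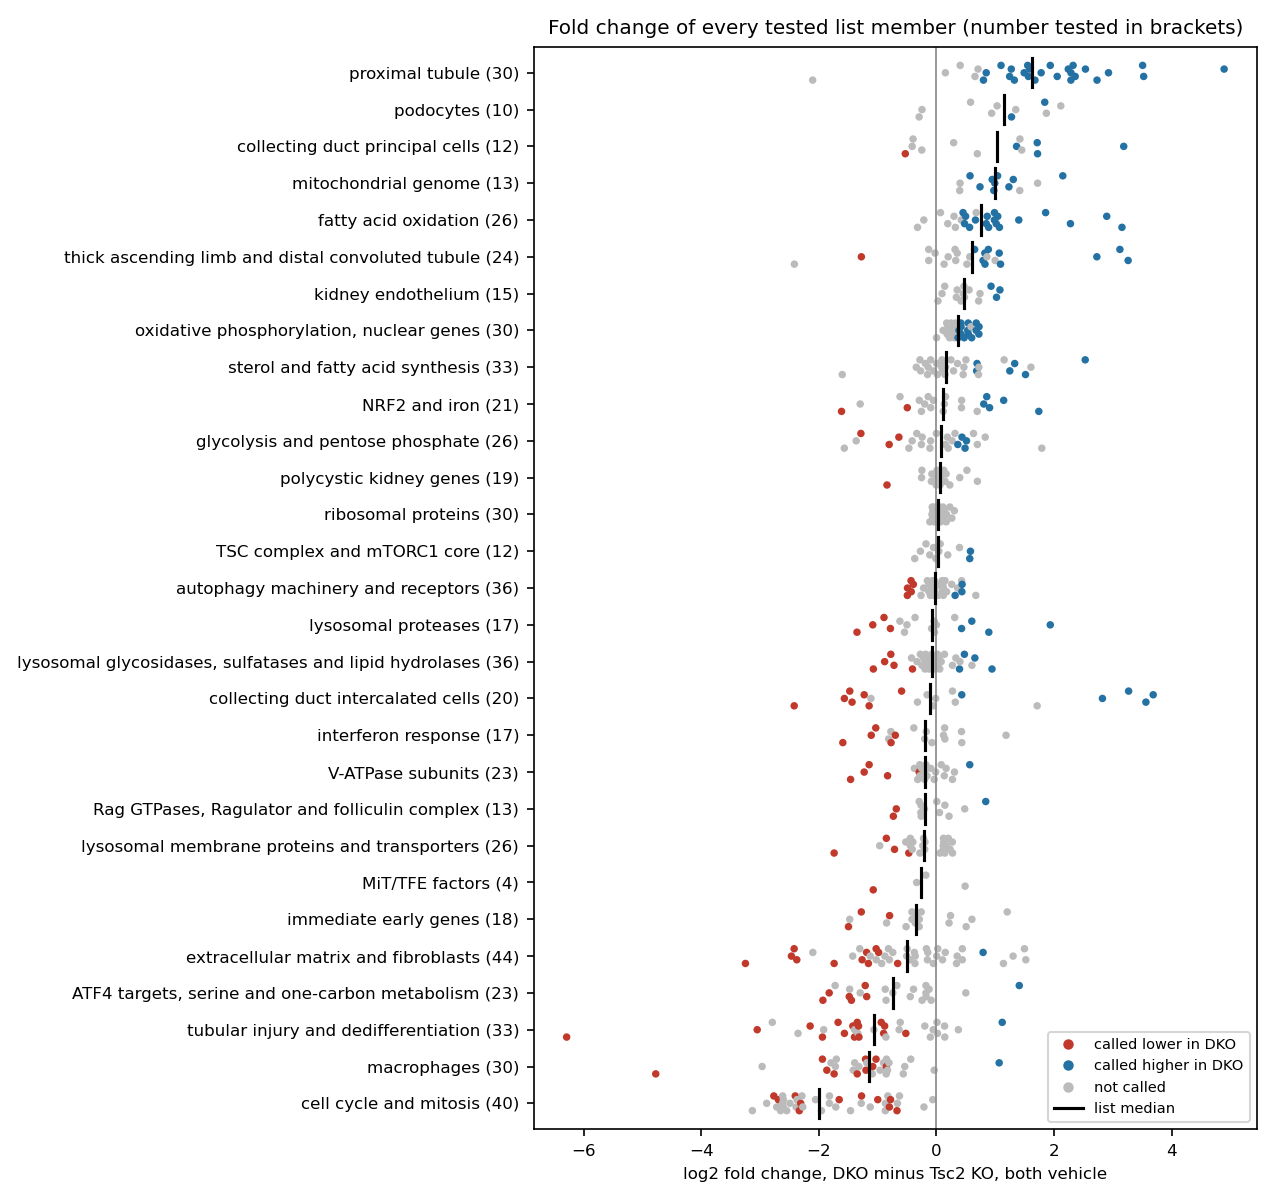
Log2 fold change (DKO minus Tsc2 KO, both vehicle) of every tested member of each gene list, with called members in red (lower) or blue (higher), members not called in grey and the list median as a black bar. Cell cycle, macrophage and injury genes lay to the left (medians -2.0, -1.14 and -1.06) and proximal tubule genes to the right (median 1.63), while ribosomal protein genes lay at 0.03.

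The largest falls and rises were picked among called genes whose groups did not overlap, so lack of overlap in these genes is no finding. The 10 genes with the largest falls were at no more than 3.37 FPKM in any control kidney. Lcn2, the neutrophil gelatinase-associated lipocalin that injured tubules secrete, was at 49.5, 37.6 and 18.7 FPKM in the Tsc2 KO kidneys, 0.370, 0.571 and 0.405 FPKM in the DKO kidneys and 0.940 to 1.06 FPKM in the controls (log2 fold change -6.29 ± 0.53, edgeR adjusted p = 1.26e-06). Every DKO library was thus below every control as well as every Tsc2 KO library. Gpnmb (ENSMUSG00000029816, chromosome 6, 49036546 to 49070929), a glycoprotein of lysosomes and melanosomes and a known target of MiT/TFE factors, was at 18.7, 17.0 and 18.4 FPKM in the Tsc2 KO kidneys, 0.219, 0.544 and 1.19 FPKM in the DKO kidneys and 0.0284 to 0.188 FPKM in the controls. This was a 27.3-fold difference (log2 fold change -4.77 ± 0.74, edgeR adjusted p = 0.000294), and every DKO library was still above every control. Bex1, a small adaptor protein of the brain-expressed X-linked family, was at 36.5, 39.7 and 59.7 FPKM in the Tsc2 KO kidneys, 2.45, 2.36 and 2.14 FPKM in the DKO kidneys and 1.18 to 2.30 FPKM in the controls (log2 fold change -4.29 ± 0.49, edgeR adjusted p = 2.37e-05), so the DKO and control ranges overlapped.

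Among the other genes with the largest falls, Mmp7, a matrix metalloproteinase of injured tubules, was at 4.04 to 12.7 FPKM in Tsc2 KO and 0.216 to 0.855 FPKM in DKO kidneys (log2 fold change -4.25 ± 0.74, edgeR adjusted p = 0.000714). S100a14, an epithelial calcium-binding protein, was at 25.2 to 46.1 FPKM in Tsc2 KO and 3.01 to 4.60 FPKM in DKO kidneys (log2 fold change -3.44 ± 0.37, edgeR adjusted p = 1.13e-05). Diras2, a small GTPase of the Ras family, fell by 4.17 and Tceal5, an X-linked relative of elongation factor TFIIS, by 3.28 in log2 units (edgeR adjusted p = 0.00159 and 0.000452, in that order). Ogdhl, a brain-enriched relative of oxoglutarate dehydrogenase, varied widely within Tsc2 KO, with 22.5, 5.91 and 27.7 FPKM against 1.87, 0.938 and 1.29 FPKM in DKO (log2 fold change -3.78, adjusted p = 0.000718). Snhg11 fell from 4.14 to 10.7 to 0.308 to 1.27 FPKM (adjusted p = 0.00262). Slpi, a secreted leukocyte protease inhibitor, was the one of these 10 genes that lost its call when 1 library was left out. Its fall of 3.15 (adjusted p = 0.0286) became a log2 fold change of -2.53, -2.75 and -2.62 without Tsc2 KO replicate 1, DKO replicate 2 or DKO replicate 3 (adjusted p of 0.108, 0.0827 and 0.0952).

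The 10 largest rises included organic anion transporters, steroid-metabolizing enzymes, the kidney androgen-regulated protein and beta-globins. Slc22a7, the basolateral organic anion transporter OAT2 of the proximal tubule, was at 0, 0.0839 and 0.0967 FPKM in the Tsc2 KO kidneys, 24.2, 28.6 and 22.4 FPKM in the DKO kidneys and 47.1 to 58.7 FPKM in the controls (log2 fold change 8.61 ± 0.90, edgeR adjusted p = 9.34e-06). Slc22a19, another organic anion transporter, was at 0.0279, 0.324 and 0.159 FPKM in the Tsc2 KO kidneys, 13.2, 14.8 and 16.3 FPKM in the DKO kidneys and 34.1 to 52.8 FPKM in the controls (log2 fold change 6.39 ± 0.49, edgeR adjusted p = 8.71e-07). The Tsc2 KO libraries held only 0 to 4 counts of Slc22a7 and 3 to 40 counts of Slc22a19, so the size of these fold changes is imprecise. The DKO libraries stayed below all controls in both genes.

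Kap, the androgen-regulated kidney protein of proximal tubules, was at 12, 80.1 and 197 FPKM in the Tsc2 KO kidneys, 2718, 2835 and 3060.5 FPKM in the DKO kidneys and 5532 to 10156 FPKM in the controls (log2 fold change 4.89 ± 0.66, edgeR adjusted p = 8.23e-05). It also rose in the uninjected mice (log2 fold change 3.14, adjusted p = 0.0493). Akr1c14, a hydroxysteroid dehydrogenase, was at 0.0937 to 0.251 FPKM in Tsc2 KO and 8.71 to 9.80 FPKM in DKO kidneys (log2 fold change 5.85 ± 0.28, edgeR adjusted p = 9.39e-09). The cytochrome P450 genes Cyp2d12 and Cyp2a4 rose by 5.24 and 5.10 (adjusted p = 1.84e-07 and 1.03e-05) and reached 9.84 to 12.5 and 23.8 to 36.0 FPKM, ranges that overlapped those of the controls (11.2 to 20.0 and 35.7 to 43.4 FPKM). In the uninjected cohort Cyp2d12 had a log2 fold change of -0.07 and Cyp2a4 of 2.58.

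For 4 of the 10 largest rises the mean was raised by particular libraries. Akr1d1, a steroid 5-beta-reductase, was at 11.1, 133 and 4.40 FPKM in the DKO libraries and Akr1c18, a 20-alpha-hydroxysteroid dehydrogenase that adrenal cortex also expresses, at 12.4, 236 and 7.46 FPKM. Both were highest in DKO replicate 2, the library with the highest adrenal sum. Without that library the log2 fold change of Akr1c18 was 1.70 in place of 4.80 (adjusted p = 0.0618 in place of 0.00456), and without the 4 adrenal-bearing libraries those of Akr1d1 and Akr1c18 were 2.65 and 2.71. The beta-globin genes Hbb-bt and Hbb-bs were at 114, 94.5 and 16.3 and 1139, 1077 and 211 FPKM in DKO against 0.288, 2.69 and 3.11 and 6.19, 41.6 and 39.2 FPKM in Tsc2 KO, with DKO replicates 1 and 2 far above replicate 3.

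**Figure D3:**
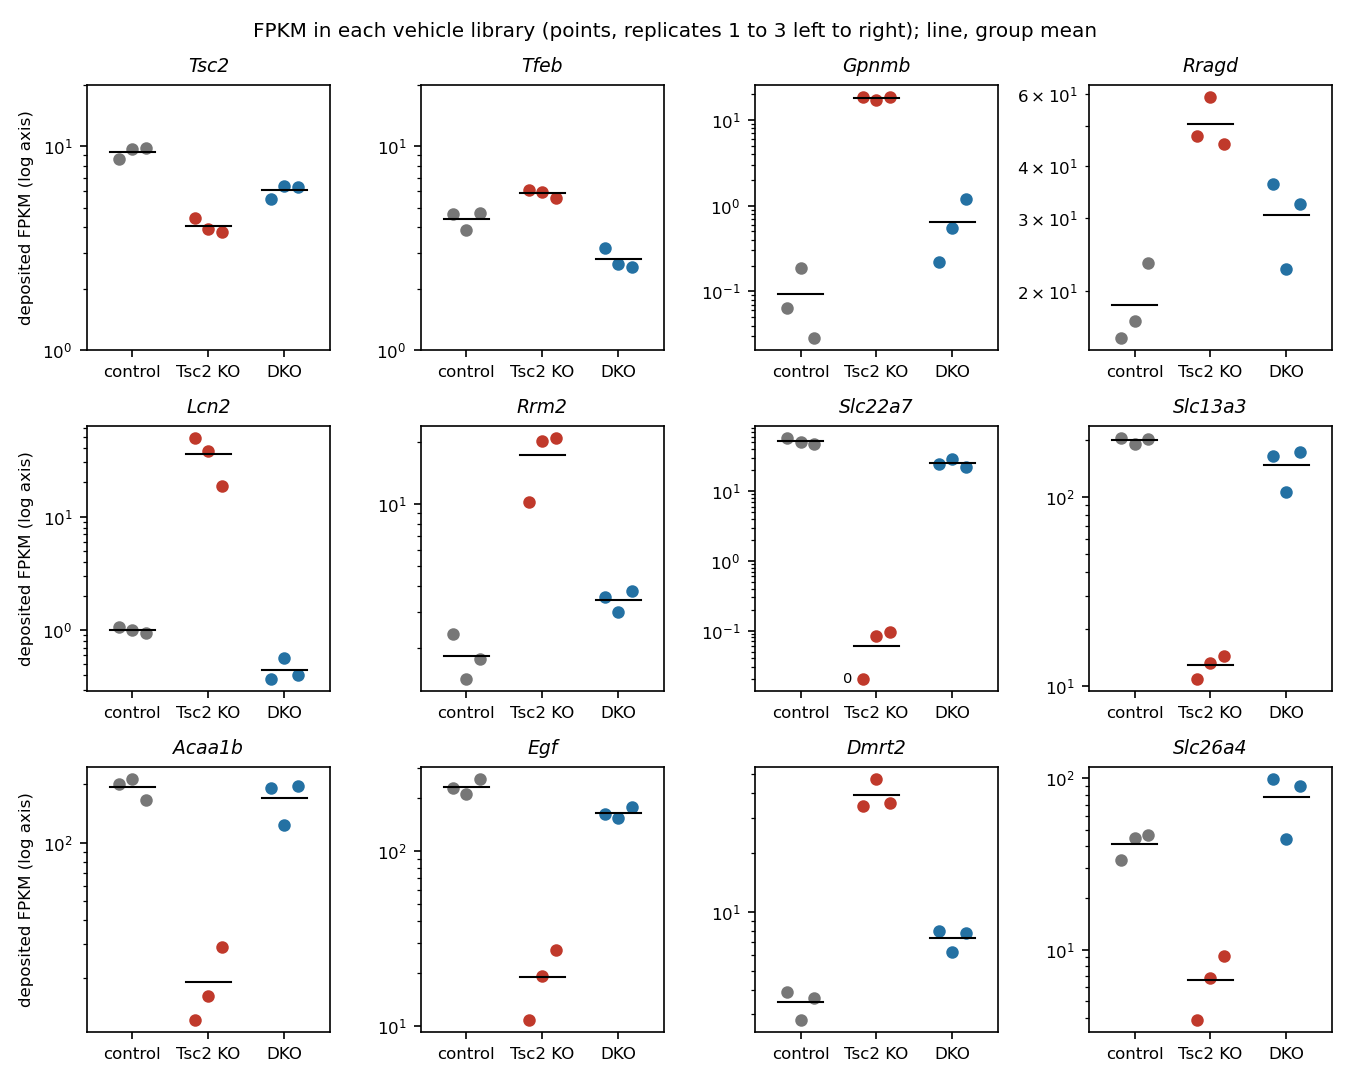
Deposited FPKM (log axis) of 12 genes in each of the 9 vehicle libraries, with one point per library, replicates 1 to 3 from left to right, and the group mean as a line. A value of 0 is drawn at the bottom and marked 0. Lcn2, Gpnmb, Rrm2 and Dmrt2 were high in all 3 Tsc2 KO libraries and lower in all DKO libraries, and Slc22a7, Slc13a3, Acaa1b, Egf and Slc26a4 showed the opposite order.

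**Figure D4:**
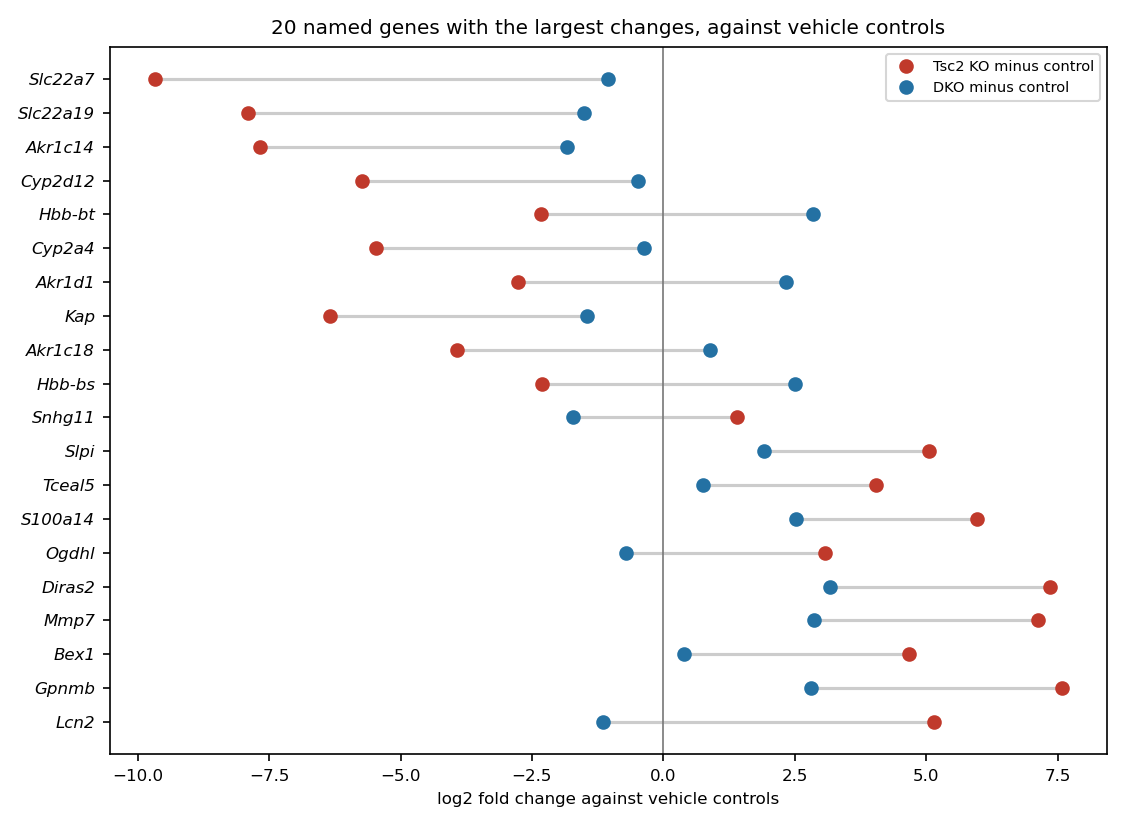
Log2 fold changes against vehicle controls of the 20 genes with the largest changes between DKO and Tsc2 KO, with Tsc2 KO in red and DKO in blue. Lcn2 stood at 5.14 in Tsc2 KO and -1.15 in DKO and Slc22a7 at -9.67 in Tsc2 KO and -1.06 in DKO. The DKO value was the farther from 0 for Snhg11, Hbb-bt and Hbb-bs, and the Tsc2 KO value for the other genes.

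Of the Rag GTPases, the Ragulator scaffold and the folliculin complex, which place mTORC1 on the lysosome, 13 genes were tested, 2 were lower, 1 was higher and the median was -0.20 against 0.01 over all genes tested. Of the 13, 11 reached the FPKM minimum, where 12.6% and 16.9% of all genes at that level were lower and higher, so both counts were near these shares. Rragc (ENSMUSG00000028646, chromosome 4, 123917446 to 123936997) was at 56.9, 41.6 and 43.2 FPKM in the Tsc2 KO kidneys, 29.7, 27.6 and 31.1 FPKM in the DKO kidneys and 24.8 to 28.7 FPKM in the controls (log2 fold change -0.68 ± 0.14, edgeR adjusted p = 0.00226). Rragd (ENSMUSG00000028278, chromosome 4, 32983037 to 33022180) was at 47.4, 59.0 and 45.3 FPKM in the Tsc2 KO kidneys, 36.3, 22.5 and 32.5 FPKM in the DKO kidneys and 15.3 to 23.3 FPKM in the controls (log2 fold change -0.73 ± 0.19, edgeR adjusted p = 0.0129). The DKO range of Rragc overlapped that of the controls, and 2 of the 3 DKO libraries were above every control in Rragd. The call of Rragd was lost without Tsc2 KO replicate 2 (log2 fold change -0.61, adjusted p = 0.0601), which brings the lower members to 1. Flcn, the folliculin tumour suppressor and GTPase activator of RagC and RagD, was at 13.1 to 17.4 FPKM in Tsc2 KO and 11.6 to 13.4 FPKM in DKO kidneys (log2 fold change -0.29, adjusted p = 0.106) and was not called. Lamtor1, the Ragulator subunit that anchors the complex in the membrane, was at 28.1 to 35.4 FPKM in Tsc2 KO and 24.9 to 28.1 FPKM in DKO kidneys (log2 fold change -0.26, adjusted p = 0.269) and was not called either. Lamtor5 went the other way, from 43.6, 48.9 and 51.2 to 97.7, 76.5 and 83.1 FPKM (log2 fold change 0.84 ± 0.11, edgeR adjusted p = 5.02e-05), which overlapped the range of the controls (86.9 to 93.2 FPKM). In the uninjected mice 11 of the 13 had a lower sign in DKO, with a median of -0.17 and Rragc, Rragd, Flcn and Lamtor1 at -0.31, -0.57, -0.30 and -0.25, none of them past an adjusted p of 0.05.

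Among the 12 genes of the TSC complex and the mTORC1 core, 8 reached the FPKM minimum, none was lower, and Tsc2 and Deptor were higher, counts that stand beside 12.6% lower and 16.9% higher over all genes at that level and are near them. Deptor, an inhibitory partner of mTOR, was at 8.69 to 11.7 FPKM in Tsc2 KO and 12.1 to 16.9 FPKM in DKO kidneys (log2 fold change 0.57 ± 0.15, edgeR adjusted p = 0.0136). Its call was lost without Tsc2 KO replicate 1 or 3 or DKO replicate 2 (adjusted p of 0.0537, 0.0651 and 0.0653), which leaves Tsc2 as the 1 higher member. The list median was 0.02.

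Lysosomal genes were examined in 4 lists. Of 17 lysosomal proteases, 4 were lower and 4 higher, and of 36 lysosomal glycosidases, sulfatases and lipid hydrolases, 5 were lower and 4 higher. Of 26 lysosomal membrane proteins 4 were lower and none was higher, and of 23 subunits of the vacuolar proton pump (V-ATPase) 5 were lower and 1 was higher. The medians of these lists were -0.08, -0.08, -0.21 and -0.20. Of their members 17, 34, 23 and 22 reached the FPKM minimum, the level at which 12.6% of all genes were lower and 16.9% higher, so that the hydrolases were near these shares. Without the adrenal-bearing libraries the 4 medians were -0.20, -0.04, -0.15 and -0.07, in the same order. Relative to the controls the medians of the 4 lists were 0.42, 0.32, 0.33 and 0.63 in Tsc2 KO and 0.29, 0.18, 0.25 and 0.38 in DKO, 2 comparisons that share the control libraries.

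Of the proteases, the lower members were the cathepsins Ctsk, Ctsc, Ctsd and Ctss and the higher ones Ctsh, Napsa, Ctsf and Ctso. Ctsk, the collagen-degrading cathepsin K, fell from 6.96, 5.45 and 4.67 to 2.08, 2.11 and 2.50 FPKM (log2 fold change -1.35 ± 0.25, edgeR adjusted p = 0.00122). Ctsc, the activator of granule proteases, fell from 17.2 to 22.4 to 9.21 to 14.3 FPKM (log2 fold change -0.78 ± 0.16, edgeR adjusted p = 0.00276). Napsa, the aspartic protease napsin A of proximal tubules, rose from 78.6, 118 and 183 to 426, 508 and 521 FPKM (log2 fold change 1.94 ± 0.33, edgeR adjusted p = 0.000637), where the controls were at 518 to 1395 FPKM. Ctsh rose by 0.89 ± 0.11 (adjusted p = 3.87e-05). Ctss and Ctsk are also genes of macrophages and osteoclasts, and Napsa of proximal tubules. The lower members were 2 in number without Tsc2 KO replicate 1 or DKO replicate 3.

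Of the hydrolases, Asah1 (acid ceramidase) was at 54.1, 54.8 and 42.4 FPKM in the Tsc2 KO kidneys, 26.1, 22.5 and 23.4 FPKM in the DKO kidneys and 24.0 to 28.0 FPKM in the controls (log2 fold change -1.07 ± 0.13, edgeR adjusted p = 4.06e-05). Gla (alpha-galactosidase A, the enzyme deficient in Fabry disease) was at 6.65 to 7.71 FPKM in Tsc2 KO and 3.82 to 4.07 FPKM in DKO kidneys (log2 fold change -0.88 ± 0.14, edgeR adjusted p = 0.000269). In both genes no DKO library overlapped a Tsc2 KO library, and Asah1 reached the control level. Acp5, the tartrate-resistant acid phosphatase, rose from 13.8 to 20.4 to 25.1 to 35.7 FPKM (log2 fold change 0.94 ± 0.20, edgeR adjusted p = 0.00276). Leaving out DKO replicate 3 brought the lower members to 3 and the higher members to 2, and leaving out DKO replicate 1 the higher members to 2.

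Of the membrane proteins, Cd68, a sialomucin most abundant in macrophages, was at 18.1, 13 and 14.4 FPKM in Tsc2 KO and 3.22, 6.67 and 3.78 FPKM in DKO (log2 fold change -1.74 ± 0.28, edgeR adjusted p = 0.000328). The chloride and proton antiporter Clcn7 and its beta subunit Ostm1 fell together, Clcn7 from 19.9, 20.6 and 21.4 to 15.5, 14.4 and 14.9 FPKM (log2 fold change -0.47 ± 0.10, edgeR adjusted p = 0.00276) and Ostm1 from 10, 8.70 and 8.97 to 5.74, 5.38 and 5.81 FPKM (log2 fold change -0.71 ± 0.12, edgeR adjusted p = 0.000487). Replicates of both genes lay close together, and the groups stood apart from each other and from the controls (8.81 to 9.30 and 3.58 to 4.83 FPKM). Without injections, the log2 fold changes were -0.43 for Clcn7 and -0.55 for Ostm1 (adjusted p = 0.215 and 0.0831). Laptm5, a lysosomal protein of haematopoietic cells, had a log2 fold change of -0.85 (adjusted p = 0.0311) that lost the call without any one of DKO replicates 1, 2 and 3 or Tsc2 KO replicate 2 (adjusted p 0.0661 to 0.168). One membrane gene was called higher without DKO replicate 2.

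The V-ATPase subunits that fell included isoforms of particular cell types. Tcirg1 (the a3 subunit of osteoclasts and macrophages) fell from 18.5, 15.8 and 14.1 to 5.39, 6.06 and 6.18 FPKM (log2 fold change -1.46 ± 0.19, edgeR adjusted p = 6.61e-05). Atp6v0d2, the d2 subunit of intercalated cells and osteoclasts, was at 159, 136 and 102 FPKM in the Tsc2 KO kidneys, 68.0, 38.9 and 62.6 FPKM in the DKO kidneys and 17.4 to 26.0 FPKM in the controls (log2 fold change -1.23 ± 0.21, edgeR adjusted p = 0.000537). Atp6v0a1 fell from 22.3 to 33.0 to 14.3 to 15.9 FPKM (log2 fold change -0.83 ± 0.14, edgeR adjusted p = 0.000677). Every DKO value of Atp6v0d2 lay above the controls and below Tsc2 KO. In the uninjected cohort all 23 subunits had a lower sign in DKO (median -0.27), none past an adjusted p of 0.05. Without DKO replicate 2 the lower members were 3 and the higher 2. The single higher member of the full comparison, Atp6v0e2 (log2 fold change 0.57, adjusted p = 0.0119), lost the call without Tsc2 KO replicate 1, Tsc2 KO replicate 2 or DKO replicate 1 (adjusted p of 0.0593, 0.0648 and 0.061), each of which leaves 0 higher members, and had a log2 fold change of -0.07 without the adrenal-bearing libraries.

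Promoter sequences were searched for the letters that TFEB is known to bind, in RefSeq windows from 250 bases before to 50 bases after each annotated start (GRCm38.p6). The motif was TCACGTGA, the core of the CLEAR element. It is its own reverse complement, so both strands are read at once. It was present in the window of 304 of all 27025 genes with one (1.12%), in 142 of 6041 that reached the FPKM minimum (2.35%), in 27 of 788 genes called lower (3.43%) and in 11 of 1033 called higher (1.06%). Of the lysosomal, V-ATPase, autophagy and Rag genes, 14 of 118 with a window held it (11.9%), among them 3 of the 20 called lower (15%) and 0 of the 11 called higher. The 10-letter CLEAR element GTCACGTGAC was found in 57 of the 6041 genes at the FPKM minimum (0.944%), in 7 of the 788 lower genes (0.888%) and in 5 of the 1033 higher genes (0.484%). The shorter E-box CACGTG, which both longer motifs contain, was in 2187 of all 27025 genes (8.09%), 766 of the 6041 at the FPKM minimum (12.7%), 111 of the 788 lower genes (14.1%) and 109 of the 1033 higher genes (10.6%). These are matches of letters and no measure of binding.

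The 3 lysosomal genes called lower whose windows held the motif were Gla, Clcn7 and Ctsd (the last named after its value was seen), and they are shown with Rragc, which held only the shorter E-box, and Ogdhl, which held the 10-letter element. Sequences run 5′ to 3′ on the strand of the gene, with the longest motif found in capitals. The windows lie at chrX:134600956-134601255 (minus strand), chr17:25133141-25133440 (plus), chr7:142387778-142388077 (minus), chr4:123917183-123917482 (plus) and chr14:32321769-32322068 (plus).
Gla: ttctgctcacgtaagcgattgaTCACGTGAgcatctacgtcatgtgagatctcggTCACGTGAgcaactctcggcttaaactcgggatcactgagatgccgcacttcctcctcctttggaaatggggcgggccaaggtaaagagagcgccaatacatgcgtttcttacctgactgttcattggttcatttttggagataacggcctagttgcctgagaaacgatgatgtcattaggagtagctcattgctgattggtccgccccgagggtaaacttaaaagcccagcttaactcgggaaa
Clcn7: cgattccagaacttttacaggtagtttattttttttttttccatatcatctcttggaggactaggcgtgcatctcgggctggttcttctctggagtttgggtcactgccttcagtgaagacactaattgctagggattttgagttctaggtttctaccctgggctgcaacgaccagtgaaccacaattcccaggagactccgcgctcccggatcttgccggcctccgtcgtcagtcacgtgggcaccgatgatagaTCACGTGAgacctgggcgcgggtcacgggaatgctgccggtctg
Ctsd: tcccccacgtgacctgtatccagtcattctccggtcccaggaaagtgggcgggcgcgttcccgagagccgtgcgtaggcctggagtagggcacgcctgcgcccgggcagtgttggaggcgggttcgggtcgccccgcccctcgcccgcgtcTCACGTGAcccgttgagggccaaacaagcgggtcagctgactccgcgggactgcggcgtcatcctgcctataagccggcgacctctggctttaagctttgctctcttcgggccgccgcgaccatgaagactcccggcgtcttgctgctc
Rragc: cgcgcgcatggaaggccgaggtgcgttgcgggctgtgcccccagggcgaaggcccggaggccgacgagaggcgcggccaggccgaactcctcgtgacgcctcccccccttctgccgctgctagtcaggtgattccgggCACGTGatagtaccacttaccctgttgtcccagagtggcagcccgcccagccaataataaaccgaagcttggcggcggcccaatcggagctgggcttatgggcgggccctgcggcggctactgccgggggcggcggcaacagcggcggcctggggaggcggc
Ogdhl: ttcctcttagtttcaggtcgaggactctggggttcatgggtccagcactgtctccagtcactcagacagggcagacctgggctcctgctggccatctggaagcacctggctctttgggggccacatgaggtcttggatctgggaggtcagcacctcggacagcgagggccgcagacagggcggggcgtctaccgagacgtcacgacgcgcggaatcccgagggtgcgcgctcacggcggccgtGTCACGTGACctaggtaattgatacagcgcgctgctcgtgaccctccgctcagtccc
Beside these windows stand log2 fold changes of -0.88 for Gla, -0.47 for Clcn7, -0.89 for Ctsd, -0.68 for Rragc and -3.78 for Ogdhl. Other genes with TCACGTGA in the window were not called, such as Mcoln1 (-0.20), the calcium channel of the lysosome, and Atp6v1a (-0.20), the catalytic V-ATPase subunit, both chosen after their values were seen.

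Of 36 genes of the autophagy machinery, 5 were lower and 3 higher, with a median of -0.03. Of these 32 reached the FPKM minimum, where 12.6% and 16.9% of all genes at that level were lower and higher. The receptor Nbr1 rose from 23.2 to 24.4 to 29.6 to 33.8 FPKM (log2 fold change 0.43 ± 0.10, edgeR adjusted p = 0.00567) and the phosphoinositide-binding Wipi2 by 0.44 ± 0.09 (adjusted p = 0.00303). Atg7, the activating enzyme of the autophagy conjugation systems, fell by 0.39 (adjusted p = 0.0147) and Vps11, a subunit of the tethering complexes of endosomes and lysosomes, by 0.43 (adjusted p = 0.0162). Both calls were lost without single libraries: Atg7 without Tsc2 KO replicate 3 or DKO replicate 1 or 3 (adjusted p 0.0545 to 0.0565), and Vps11 without Tsc2 KO replicate 1 or DKO replicate 3 (0.0937 and 0.0597). The number of lower members was 2, 3 and 3 without Tsc2 KO replicates 1, 2 and 3, and 2 and 0 without DKO replicates 1 and 3.

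Of 23 genes of the ATF4 response and of serine and one-carbon metabolism, 18 reached the FPKM minimum. Of these 6 were lower and 1 was higher, beside 12.6% lower and 16.9% higher over all genes at that level. By sign 21 of the 23 were lower, and the median was -0.74. Mthfd2, the mitochondrial methylenetetrahydrofolate dehydrogenase, was at 8.18, 7.30 and 6.86 FPKM in the Tsc2 KO kidneys, 3.29, 3.35 and 3.03 FPKM in the DKO kidneys and 1.2 to 1.36 FPKM in the controls (log2 fold change -1.21 ± 0.18, edgeR adjusted p = 0.000219). Aldh18a1, which makes the proline precursor, was at 5.61 to 7.83 FPKM in Tsc2 KO and 2.23 to 2.90 FPKM in DKO kidneys (log2 fold change -1.48 ± 0.20, edgeR adjusted p = 9.84e-05), and Trib3, the pseudokinase induced by ATF4, at 3.69 to 7.23 FPKM in Tsc2 KO and 1.19 to 1.56 FPKM in DKO kidneys (log2 fold change -1.93 ± 0.42, edgeR adjusted p = 0.00341). In these genes DKO kidneys lay between control and Tsc2 KO without overlap. Shmt2, the mitochondrial serine hydroxymethyltransferase of the same folate pathway, went in the opposite direction, from 19.5, 17.8 and 22.8 to 55.9, 48.1 and 55.8 FPKM (log2 fold change 1.41 ± 0.12, edgeR adjusted p = 1.73e-06). The controls were at 58.0 to 69.7 FPKM.

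Most genes of fatty acid oxidation rose in DKO. Of 26 genes tested, 25 reached the FPKM minimum and 18 were higher and none was lower (median 0.76, and 0.65 without the adrenal-bearing libraries). Among all genes at that level 16.9% were higher and 12.6% lower. Acaa1b, the peroxisomal thiolase, was at 12.1, 16.2 and 29.0 FPKM in the Tsc2 KO kidneys, 191, 124 and 196 FPKM in the DKO kidneys and 167 to 214 FPKM in the controls (log2 fold change 3.15 ± 0.29, edgeR adjusted p = 2.63e-06). Ehhadh, the peroxisomal bifunctional enzyme, was at 24.7 to 37.7 FPKM in Tsc2 KO and 99.9 to 126 FPKM in DKO kidneys (log2 fold change 1.86 ± 0.20, edgeR adjusted p = 1.25e-05), and Acadm, the medium-chain acyl-CoA dehydrogenase of mitochondria, at 48.6 to 71.6 FPKM in Tsc2 KO and 146 to 156 FPKM in DKO kidneys (log2 fold change 1.40 ± 0.16, edgeR adjusted p = 2.72e-05). The omega-hydroxylase Cyp4a14 rose by 2.90 ± 0.35 (adjusted p = 3.45e-05). Acaa1b returned to the control range in 2 of 3 DKO libraries, whereas Ehhadh and Acadm stayed below all controls. In the uninjected mice the list median was -0.02 with 15 of 26 genes lower by sign, although these 4 genes were higher there too (0.65, 1.00, 0.74 and 1.39, none past an adjusted p of 0.05).

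Of 30 nuclear genes of oxidative phosphorylation, all had a higher sign, 14 were called higher and none lower (median 0.36). All 30 reached the FPKM minimum, where 16.9% of all genes were higher and 12.6% lower. The succinate dehydrogenase subunit Sdha was at 115, 141 and 159 FPKM in Tsc2 KO and 250.1, 198 and 237 FPKM in DKO (log2 fold change 0.72 ± 0.13, edgeR adjusted p = 0.000739), and Sdhc rose by 0.68 ± 0.12 (adjusted p = 0.000624). The complex I subunits Ndufs1 and Ndufa9 rose by 0.72 and 0.54 (adjusted p = 0.00169 for both). The count of higher members was 9 without Tsc2 KO replicate 1, 8 without Tsc2 KO replicate 2, 7 without DKO replicate 1 and 9 without DKO replicate 3. Of the 13 protein genes of the mitochondrial genome, 9 were higher and none lower (median 0.99). mt-Nd4 was at 3976, 2610.1 and 3113 FPKM in Tsc2 KO, 7322, 5308 and 6675 FPKM in DKO and 7506 to 8216 FPKM in the controls (log2 fold change 0.99 ± 0.18, edgeR adjusted p = 0.000806). mt-Nd3, mt-Co2 and mt-Cytb rose by 1.31, 1.04 and 0.98 (adjusted p = 6.01e-05, 0.0012 and 0.00162). Without injections, the median was -0.06 for the nuclear and 0.22 for the mitochondrial genes.

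Sterol and fatty acid synthesis held 6 higher genes and no lower one among 33 (median 0.16). Of these 30 reached the FPKM minimum, where 12.6% and 16.9% of all genes at that level were lower and higher, so the higher members were near that share. The 12 adipose tissue markers, 2 of them called higher, had a median of 2.55, and their part in the sterol list was not tested. Cyp51, the lanosterol demethylase, was at 18.5 to 23.7 FPKM in Tsc2 KO and 50.5 to 76.4 FPKM in DKO kidneys (log2 fold change 1.51 ± 0.21, edgeR adjusted p = 9.18e-05). Acss2, the acetyl-CoA synthetase of cytosol and nucleus, was at 4.48 to 8.49 FPKM in Tsc2 KO and 12.5 to 17.2 FPKM in DKO kidneys (log2 fold change 1.25 ± 0.19, edgeR adjusted p = 0.000278), Me1, the cytosolic malic enzyme that makes NADPH, rose by 1.33 ± 0.24 (adjusted p = 0.000936) and Sc5d, a sterol desaturase, by 0.69 ± 0.17 (adjusted p = 0.00673). In the uninjected cohort 27 of the 33 were lower by sign in DKO (median -0.30).

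Of 26 genes of glycolysis and the pentose phosphate pathway, 22 reached the FPKM minimum, and 3 were lower and 4 higher (median 0.08), shares near the 12.6% and 16.9% over all genes. Pfkp, the platelet-type phosphofructokinase, was at 14.4, 14.6 and 15.5 FPKM in the Tsc2 KO kidneys, 6.55, 5.84 and 5.92 FPKM in the DKO kidneys and 4.25 to 5.94 FPKM in the controls (log2 fold change -1.28 ± 0.13, edgeR adjusted p = 6.15e-06). Pfkm, the muscle-type isozyme, went from 16.6 to 19.4 to 23.6 to 28.6 FPKM (log2 fold change 0.51 ± 0.10, edgeR adjusted p = 0.00183). The 2 isozymes thus moved in opposite directions without overlap in either. The glucose transporter Slc2a1 (log2 fold change -0.64, adjusted p = 0.0237) lost its call without Tsc2 KO replicate 1 or DKO replicate 1 or 3 (adjusted p of 0.145, 0.0793 and 0.0753), and the transaldolase Taldo1 (0.36, adjusted p = 0.0162) without Tsc2 KO replicate 2 or DKO replicate 2 (0.0818 and 0.0592). Lower members numbered 1 without Tsc2 KO replicate 1 or DKO replicate 1, and higher members 2, 1, 2 and 2 without Tsc2 KO replicates 1 and 2 and DKO replicates 2 and 3.

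Of 21 NRF2 targets and iron genes, 18 reached the FPKM minimum, and 5 were higher and 2 lower (median 0.12), beside 16.9% higher and 12.6% lower over all genes at that level. Without the adrenal-bearing libraries none was called. Gclm, the modifier subunit of glutathione synthesis, rose by 0.81 ± 0.14 (adjusted p = 0.00068), and the glutathione transferases Gsta3 and Gstm1 by 0.86 and 1.14 (adjusted p = 0.00148 and 0.00239). Cp, the ferroxidase ceruloplasmin, was at 17.7, 13.8 and 10.3 FPKM in Tsc2 KO and 4.13, 5.20 and 4.35 FPKM in DKO (log2 fold change -1.61 ± 0.26, edgeR adjusted p = 0.000326), below the controls (7.47 to 10.3 FPKM). The other lower member was the iron exporter Slc40a1 (-0.49, adjusted p = 0.0215, named after its value was seen), and the count of lower members was 1 without Tsc2 KO replicate 2 or 3 or DKO replicate 2 or 3.

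Most proximal tubule genes rose in DKO. Of 30 marker genes tested, 29 reached the FPKM minimum and 25 were higher and none was lower, with a median of 1.63 (1.76 with the adrenal covariate and 1.54 without the adrenal-bearing libraries). Over all genes at that level 16.9% were higher and 12.6% lower. The summed level of the 30 markers was 9725, 8212 and 12483 CPM in Tsc2 KO, 33102, 23222 and 33179.5 CPM in DKO and 38633 to 42842 CPM in the controls. Every DKO kidney therefore lay above every Tsc2 KO kidney and below every control.

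Slc13a3, the sodium-dicarboxylate cotransporter of the basolateral membrane, was at 10.8, 13.3 and 14.5 FPKM in the Tsc2 KO kidneys, 165, 106 and 173 FPKM in the DKO kidneys and 191 to 205 FPKM in the controls (log2 fold change 3.52 ± 0.20, edgeR adjusted p = 4.17e-08). Slc22a8, the organic anion transporter OAT3, was at 15.8, 23.7 and 30.8 FPKM in Tsc2 KO and 184, 122 and 161 FPKM in DKO (log2 fold change 2.73 ± 0.23, edgeR adjusted p = 1.42e-06). Slc27a2, a fatty acid transporter and acyl-CoA synthetase, rose from 75.3 to 117 to 380.1 to 508 FPKM (log2 fold change 2.29 ± 0.19, edgeR adjusted p = 1.17e-06) and the urate and phosphate transporter Slc17a3 by 2.24 ± 0.17 (adjusted p = 5.65e-07). These 4 remained past the threshold in the comparison of the 2 adrenal-free kidneys with pooled spread (adjusted p of 4.42e-05, 0.00101, 0.00139 and 0.000327), as did 18 of the 30. In the uninjected mice the list median was 0.25, with 13 of 30 genes lower by sign.

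In the thick ascending limb and distal convoluted tubule, 10 of 24 genes (21 at the FPKM minimum) were higher and 1 was lower (median 0.61). Beside these counts stand 16.9% higher and 12.6% lower over all genes at that level. Egf, the pro-epidermal growth factor made by these segments, was at 10.8, 19.3 and 27.2 FPKM in the Tsc2 KO kidneys, 163, 156 and 179 FPKM in the DKO kidneys and 211 to 259.6 FPKM in the controls (log2 fold change 3.12 ± 0.27, edgeR adjusted p = 1.64e-06). Calb1, the calcium buffer calbindin D28k of the distal convoluted and connecting tubule, was at 12.4 to 20.1 FPKM in Tsc2 KO and 99.7 to 137 FPKM in DKO kidneys (log2 fold change 2.73 ± 0.27, edgeR adjusted p = 5.71e-06) and also rose in the uninjected mice (log2 fold change 2.06, adjusted p = 0.0355). Pvalb, parvalbumin of the early distal convoluted tubule, was at 0.291, 2.71 and 1.90 FPKM in Tsc2 KO and 20.8, 12.6 and 14.3 FPKM in DKO (log2 fold change 3.26 ± 0.51, edgeR adjusted p = 0.000294). The single lower gene, Ptger3, the prostaglandin receptor EP3, fell from 26.9 to 42.0 to 12.9 to 14.4 FPKM (log2 fold change -1.28 ± 0.18, edgeR adjusted p = 0.000157), inside the range of the controls (12.9 to 17.1 FPKM).

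Collecting duct principal cell genes gave 4 higher and 1 lower of 12 tested, 10 of them at the FPKM minimum (median 1.03). Over all genes at that level 16.9% were higher and 12.6% lower, and the lower count was near that share. The calls of Aqp2, Fxyd4 and Aqp4 were lost without DKO replicate 2. Aqp3, the basolateral water channel, was at 21.9, 20.7 and 27.0 FPKM in Tsc2 KO and 55.7, 49.5 and 73.9 FPKM in DKO (log2 fold change 1.36 ± 0.19, edgeR adjusted p = 0.000103), with all DKO libraries above all Tsc2 KO libraries. Aqp2, the vasopressin-regulated water channel, was at 235, 708 and 328 FPKM in DKO against 116 to 153 FPKM in Tsc2 KO (log2 fold change 1.71 ± 0.42, edgeR adjusted p = 0.00808). Fxyd4 rose by 1.72 ± 0.43 (adjusted p = 0.00883) and Aqp4 by 3.19 ± 1.03 (adjusted p = 0.0356) with DKO replicate 2 included. Without that library the log2 fold change was 1.12 for Aqp2, 1.23 for Fxyd4 and 1.55 for Aqp4 (edgeR adjusted p = 0.0531, 0.0525 and 0.264). Aqp3 was then the 1 higher member left. Aqp4 also lost the call without Tsc2 KO replicate 1 or 2 (adjusted p of 0.101 and 0.13). The lower member, the sodium channel subunit Scnn1b (-0.53, adjusted p = 0.0426, named after its value was seen), was not called without Tsc2 KO replicate 1 or 2 or DKO replicate 2 or 3, leaving 0. Without injections, the list median was 1.06, with Fxyd4 at 2.32 (adjusted p = 0.0355).

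Intercalated cells, the acid-base cells of the collecting duct, showed genes moving in opposite directions, 7 of 20 lower and 5 higher (median -0.11). Of the 20, 18 reached the FPKM minimum, where 12.6% of all genes were lower and 16.9% higher. The higher genes included those of the bicarbonate-secreting type B and non-A non-B cells. Slc26a4, the chloride-bicarbonate exchanger pendrin, was at 3.85, 6.86 and 9.15 FPKM in the Tsc2 KO kidneys, 99.8, 44.1 and 90.8 FPKM in the DKO kidneys and 33.1 to 46.5 FPKM in the controls (log2 fold change 3.56 ± 0.33, edgeR adjusted p = 3.39e-06). Insrr, the alkali-sensing insulin receptor-related receptor, was at 0.451, 0.979 and 1.16 FPKM in Tsc2 KO and 13.9, 6.51 and 13.1 FPKM in DKO (log2 fold change 3.69 ± 0.32, edgeR adjusted p = 1.75e-06), and Slc4a9, the basolateral anion exchanger AE4 of type B cells, at 3.73, 4.60 and 5.41 and 38.7, 20.8 and 37.8 FPKM (log2 fold change 2.82 ± 0.23, edgeR adjusted p = 1.17e-06). Hmx2, a homeobox gene (named after its value was seen), rose by 3.27 ± 0.41 (adjusted p = 5.06e-05). All DKO values of the pendrin gene were above all Tsc2 KO values, and 2 of them were above every control.

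The lower intercalated genes were Dmrt2, Foxi1, Kit, Aqp6, Tfcp2l1, Atp6v0d2 and Atp6v1g3. Dmrt2, a transcription factor of the acid-secreting type A cells, was at 34.5, 47.6 and 35.9 FPKM in the Tsc2 KO kidneys, 8.02, 6.25 and 7.83 FPKM in the DKO kidneys and 2.80 to 3.91 FPKM in the controls (log2 fold change -2.42 ± 0.17, edgeR adjusted p = 4.44e-07). Foxi1, the factor that specifies intercalated cells, had a log2 fold change of -1.56 and Aqp6, their intracellular aquaporin, of -1.43. In the uninjected cohort Insrr rose as well (log2 fold change 1.70, adjusted p = 0.0212), while Slc26a4, Slc4a9 and Dmrt2 were at 1.37, 1.46 and -1.71 (adjusted p = 0.0547, 0.0524 and 0.109). Between the 2 adrenal-free kidneys the log2 fold changes of Slc26a4, Insrr, Slc4a9 and Dmrt2 were 3.31, 3.49, 2.81 and -2.19. The median of the intercalated list was 0.05 there, against -0.11 in the full comparison.

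Podocytes and endothelium are cell types outside the tubule. Of 10 podocyte genes 5 reached the FPKM minimum, and 2 were higher and none lower (median 1.15). By the adjusted p alone 5 of the 10 were higher, where 11.9% of all 17027 tested genes were higher by that rule. Podxl, the podocalyxin of the foot process surface, was at 16.3 to 19.2 FPKM in Tsc2 KO and 40.5 to 43.7 FPKM in DKO kidneys (log2 fold change 1.28 ± 0.24, edgeR adjusted p = 0.00109). Of 15 kidney endothelium genes 11 reached that minimum, and 3 were higher and none lower (median 0.47), against 16.9% higher over all genes at that level. Without the adrenal-bearing libraries 1 podocyte gene and no endothelial gene was called higher, the medians being 1.23 and 0.44. Kdr, the VEGF receptor, Emcn and the angiopoietin receptor Tek had log2 fold changes of 0.93, 1.08 and 1.02 (adjusted p = 0.0224, 0.0328 and 0.0345), all highest in DKO replicate 2, without which they were 0.60, 0.53 and 0.53. The endothelial count was 0 without Tsc2 KO replicate 2, Tsc2 KO replicate 3 or DKO replicate 2, 1 without DKO replicate 3 and 6 without DKO replicate 1.

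Of 33 markers of tubular injury and dedifferentiation, 27 reached the FPKM minimum and 15 were lower and 1 was higher (median -1.06, and -0.87 without the adrenal-bearing libraries). Among all genes at that level 12.6% were lower and 16.9% higher. The median of the uninjected cohort was -0.14, with 22 of 33 lower by sign. Their summed level was 13332, 19533 and 15576 CPM in Tsc2 KO, 7081, 4865 and 6463 CPM in DKO and 3469 to 3670.4 CPM in the controls. Beside Lcn2, Lgals3, the galectin 3 of injured tubules and macrophages, was at 147, 134 and 138 FPKM in the Tsc2 KO kidneys, 42.9, 27.7 and 38.7 FPKM in the DKO kidneys and 14.5 to 18.2 FPKM in the controls (log2 fold change -1.94 ± 0.18, edgeR adjusted p = 2.68e-06). Anxa3, an annexin, was at 10.8 to 14.2 FPKM in Tsc2 KO and 4.78 to 5.22 FPKM in DKO kidneys (log2 fold change -1.32 ± 0.15, edgeR adjusted p = 1.88e-05) with 4.34 to 4.70 FPKM in the controls. Cdkn1a, the cell cycle inhibitor p21, was at 25.7, 24.0 and 26.6 FPKM in Tsc2 KO and 9.73, 9.68 and 9.12 FPKM in DKO (log2 fold change -1.42 ± 0.23, edgeR adjusted p = 0.000427), above all controls (2.67 to 2.82 FPKM). The higher member was the integrin subunit Itgb8 (1.12, named after its value was seen).

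Of 44 genes of extracellular matrix and fibroblasts, 27 reached the FPKM minimum and 11 were lower and 1 was higher (median -0.50, and -0.93 without the adrenal-bearing libraries). The shares over all genes at that level were 12.6% lower and 16.9% higher. Mmp14, the membrane-type metalloproteinase, was at 19.5, 14.5 and 15 FPKM in Tsc2 KO and 2.49, 4.17 and 2.81 FPKM in DKO (log2 fold change -2.37 ± 0.25, edgeR adjusted p = 1.03e-05), and Lox, the collagen crosslinking enzyme, at 6.87, 5.17 and 3.69 and 0.510, 1.69 and 0.739 FPKM (log2 fold change -2.42 ± 0.43, edgeR adjusted p = 0.000822). Col4a2, a basement membrane collagen, fell from 61.0 to 78.3 to 26.2 to 37.4 FPKM (log2 fold change -1.16 ± 0.23, edgeR adjusted p = 0.00201). Matn1, a cartilage matrix protein, was at 0.581, 7.46 and 9.62 FPKM in Tsc2 KO and 0.969, 0.224 and 0.669 FPKM in DKO (log2 fold change -3.25 ± 0.81, edgeR adjusted p = 0.0103), so that Tsc2 KO replicate 1 lay inside the DKO range, and it had no count in any control. The count of lower members was 5 and 4 without Tsc2 KO replicates 2 and 3 and 6 and 7 without DKO replicates 1 and 3. The higher member, Timp3 (named after its value was seen), was not called without Tsc2 KO replicate 1, leaving 0.

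Of 30 macrophage genes tested in the vehicle cohort, 16 reached the FPKM minimum, 10 were lower and 1, the engulfment receptor Mertk, was higher (1.07, named after its value was seen), with a median of -1.14. Over all genes at that level 12.6% were lower and 16.9% higher. The summed level of the 30 macrophage genes was 10095, 15491 and 12929 CPM in Tsc2 KO, 5417, 2953 and 4633 CPM in DKO and 2093 to 2185 CPM in the controls. Gpnmb, Cd68, Lgals3 and Laptm5 are among these genes and were described above. Cd14, the lipopolysaccharide co-receptor, was at 22.3, 14.5 and 11.7 FPKM in Tsc2 KO and 3.74, 4.25 and 5.35 FPKM in DKO (log2 fold change -1.86 ± 0.33, edgeR adjusted p = 0.00072), and the complement genes C1qa, C1qb and C1qc fell by 1.03, 1.21 and 1.2 on the log2 scale. In the uninjected mice the macrophage median was 0.69, with only 6 of 30 genes lower by sign in DKO. The difference between the 2 sets of mice was not tested.

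Other immune lists were near or below the limit of what could be tested. Of 8 T cell genes none reached the FPKM minimum. Cd8a was at 0.0973 to 0.375 FPKM in Tsc2 KO and 0.316 to 1.65 FPKM in DKO kidneys (log2 fold change 2.09, adjusted p = 0.0455, below the FPKM minimum and not called), with an adjusted p of 0.0662 to 0.154 without Tsc2 KO replicate 1, 2 or 3 or DKO replicate 1 or 3, and Trbc2 had a log2 fold change of 0.56 (adjusted p = 0.514). Of 9 B cell genes none was called, Ighm and Igkc having 1.19 and -1.46 (adjusted p = 0.0872 and 0.124), and 1 gene was called lower without Tsc2 KO replicate 1 and 1 higher without Tsc2 KO replicate 2 or DKO replicate 1. Of the neutrophil genes tested, Csf3r was at 0.324 to 0.464 FPKM in Tsc2 KO and 0.142 to 0.304 FPKM in DKO kidneys and S100a9 at 0.389 to 1.45 FPKM in Tsc2 KO and 0.109 to 0.619 FPKM in DKO kidneys, and neither was called (log2 fold changes -0.93 and -1.37, adjusted p = 0.179 and 0.281).

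Of 17 interferon response genes 13 reached the FPKM minimum, 5 were lower and none higher (median -0.20). Over all genes at that level 12.6% were lower and 16.9% higher. The antiviral 2-5A synthetase gene Oas1a was at 6.63, 10.7 and 6.95 FPKM in Tsc2 KO and 2.39, 3.15 and 2.52 FPKM in DKO (log2 fold change -1.59 ± 0.32, edgeR adjusted p = 0.00209), and its relative Oasl2 fell by 1.03 (adjusted p = 0.00565). Bst2 (tetherin) and Usp18, the ISG15 protease, had log2 fold changes of -0.70 and -1.11 (adjusted p = 0.0154 and 0.0251), which lost the call without Tsc2 KO replicate 2 or 3 or DKO replicate 3, and in Usp18 also without DKO replicate 1 (adjusted p 0.0542 to 0.106). The count of lower members was 1 and 2 without Tsc2 KO replicates 2 and 3, and 3 and 2 without DKO replicates 1 and 3. Without injections, all 17 had a higher sign in DKO (median 0.63), none past an adjusted p of 0.05.

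Genes of the cell cycle and mitosis fell without exception by sign. Of 40 tested, all had a negative log2 fold change, with a median of -2.0 (-2.30 without the adrenal-bearing libraries). Only 12 of the 40 reached the FPKM minimum, and 11 of these were called lower. Rrm2, Ccnb2 and Mcm6 met it through Tsc2 KO alone, so the share of lower calls among the 12 is no support by itself. By the adjusted p alone 35 of the 40 were lower, where 10% of all 17027 tested genes were lower and 11.9% higher by that rule. Rrm2, a subunit of ribonucleotide reductase, was at 10.3, 20.3 and 21.0 FPKM in the Tsc2 KO kidneys, 3.52, 2.97 and 3.78 FPKM in the DKO kidneys and 1.41 to 2.33 FPKM in the controls (log2 fold change -2.33 ± 0.27, edgeR adjusted p = 2.75e-05). Ccnb2, a mitotic cyclin, was at 5.28, 11.6 and 14.3 FPKM in Tsc2 KO and 1.23, 1.63 and 1.96 FPKM in DKO (log2 fold change -2.69 ± 0.47, edgeR adjusted p = 0.000776), and Mcm6, a subunit of the replicative helicase, at 5.83 to 10.3 FPKM in Tsc2 KO and 3.05 to 4.59 FPKM in DKO kidneys (log2 fold change -1.27 ± 0.20, edgeR adjusted p = 0.000319). Ccnd1, the cyclin of the G1 phase, was at 46.1 to 52.0 FPKM in Tsc2 KO and 21.5 to 28.9 FPKM in DKO kidneys (log2 fold change -1.0 ± 0.18, edgeR adjusted p = 0.000914), and fell in the uninjected mice too (log2 fold change -1.09, adjusted p = 0.0355). Tsc2 KO replicate 1 had the lowest values of that group in Rrm2, Ccnb2 and Mcm6, and without it the called members rose to 17. In the uninjected cohort 38 of the 40 were lower by sign, with a median of -0.66.

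Of 18 immediate early genes 13 reached the FPKM minimum, and 3 were lower and none higher (median -0.35), beside 12.6% lower and 16.9% higher over all genes at that level. Klf6 was at 34.8, 35.9 and 34.4 FPKM in Tsc2 KO and 16.3, 11.7 and 15.4 FPKM in DKO (log2 fold change -1.28 ± 0.15, edgeR adjusted p = 2.82e-05), the stress factor Atf3 fell by 1.5 (adjusted p = 0.00995), and Klf4 (-0.80, adjusted p = 0.0212) lost its call without Tsc2 KO replicate 1 or DKO replicate 1 or 2 (adjusted p of 0.115, 0.0748 and 0.0699). Of 19 genes mutated in polycystic and nephronophthisis-type kidney disease, 12 reached the FPKM minimum, 1 was lower and none higher (median 0.06). It was Bicc1, an RNA-binding protein, at 28.2 to 36.4 FPKM in Tsc2 KO and 15.2 to 18.9 FPKM in DKO kidneys (log2 fold change -0.84 ± 0.19, edgeR adjusted p = 0.00481), and 1 other gene was called higher without Tsc2 KO replicate 2. None of the 30 ribosomal protein genes was called (median 0.03), the smallest p-values being those of Rps3 and Rplp1 with log2 fold changes of 0.13 and 0.26 (edgeR adjusted p = 0.393 and 0.408).

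Markers of tissues other than kidney were examined beside these results. Of 6 erythrocyte genes 5 were higher, with a median of 4.32. Their sum was 117, 261 and 243 CPM in Tsc2 KO, 1640.0, 1976 and 414 CPM in DKO and 247 to 309 CPM in the controls. Hba-a1, alpha-globin, rose by 4.38 ± 0.75 (adjusted p = 0.000655) and Alas2, the heme synthesis enzyme of red cell precursors, by 4.20 ± 0.82 (adjusted p = 0.00169), and without the adrenal-bearing libraries both were at 1.74 and 0.92. Within DKO the sums were higher in the 2 adrenal-bearing libraries, whereas within Tsc2 KO the library with the highest adrenal sum had the lowest blood sum. The part of blood transcripts in other results was not tested.

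Of 17 adrenal cortex genes only Dab2 was called, lower by 0.56 (adjusted p = 0.0134), an endocytic adaptor that proximal tubules also express. Its call was lost without Tsc2 KO replicate 1 or DKO replicate 3 (adjusted p of 0.0603 and 0.0609), which leaves 0. Leaving out DKO replicate 2 gave 2 lower adrenal genes, and leaving out Tsc2 KO replicate 1 gave 6 higher ones. Of 4 adrenal medulla genes tested 2 were higher. Npy was at 2.02, 71.8 and 1.55 FPKM in the DKO libraries, and without DKO replicate 2 its log2 fold change was 0.47 in place of 4.28 (adjusted p = 0.624 in place of 0.0117). It was not called without Tsc2 KO replicate 2 either (adjusted p = 0.0571), and each of these libraries left out brings the count to 1. Slc18a1, a monoamine transporter, was at 7.40 to 11.0 FPKM in Tsc2 KO and 17.3 to 18 FPKM in DKO kidneys (log2 fold change 0.94 ± 0.18, edgeR adjusted p = 0.00158), with 26.4 to 40.9 FPKM in the controls, where adrenal sums were low. All 12 adipose tissue genes had a higher sign, with a median of 2.55 (2.07 without the adrenal-bearing libraries and 1.11 in the uninjected cohort). Their sum was 1127, 538 and 1424 CPM in Tsc2 KO, 5479, 4239 and 6897 CPM in DKO and 2979 to 7373 CPM in the controls, and the part of adipose transcripts in other results was not tested. The called members were 2, Pck1, the gluconeogenic enzyme that proximal tubules express in quantity (log2 fold change 2.93, adjusted p = 9.12e-05), and Lpl, lipoprotein lipase (1.55, adjusted p = 0.00196). Xist, the only sex-linked marker tested, had a log2 fold change of 0.36 (adjusted p = 0.291).

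The vehicle-treated and the uninjected cohort can be set side by side, since no library is shared. Between DKO and Tsc2 KO, 24 of the 16631 genes tested in the uninjected mice passed an adjusted p of 0.05, and 16401 genes were tested in both cohorts. Levels rather than calls are therefore compared. List medians had the same sign and a similar size in both sets for collecting duct principal cells (1.03 and 1.06, with 0.51 for the vehicle cohort without its adrenal-bearing libraries) and for the Rag (-0.20 and -0.17) and lysosomal membrane lists (-0.21 and -0.23). They were smaller in the uninjected mice for the cell cycle (-2.0 and -0.66) and proximal tubule lists (1.63 and 0.25). They differed in sign for macrophages, interferon response, sterol synthesis, fatty acid oxidation and nuclear oxidative phosphorylation, as given above, and for NRF2 and iron (0.12 and -0.08) and glycolysis (0.08 and -0.07). The signs also differed for T cells, neutrophils, polycystic kidney genes, adrenal cortex, Xist and the TSC and mTORC1 list. Of the largest falls, Lcn2, Mmp7 and Slpi had log2 fold changes of 0.92, 1.41 and 3.89 in the uninjected mice, none past an adjusted p of 0.05, whereas Bex1, Diras2, Tceal5 and Gpnmb were at -3.25, -3.57, -2.74 and -1.46.

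**Figure D5:**
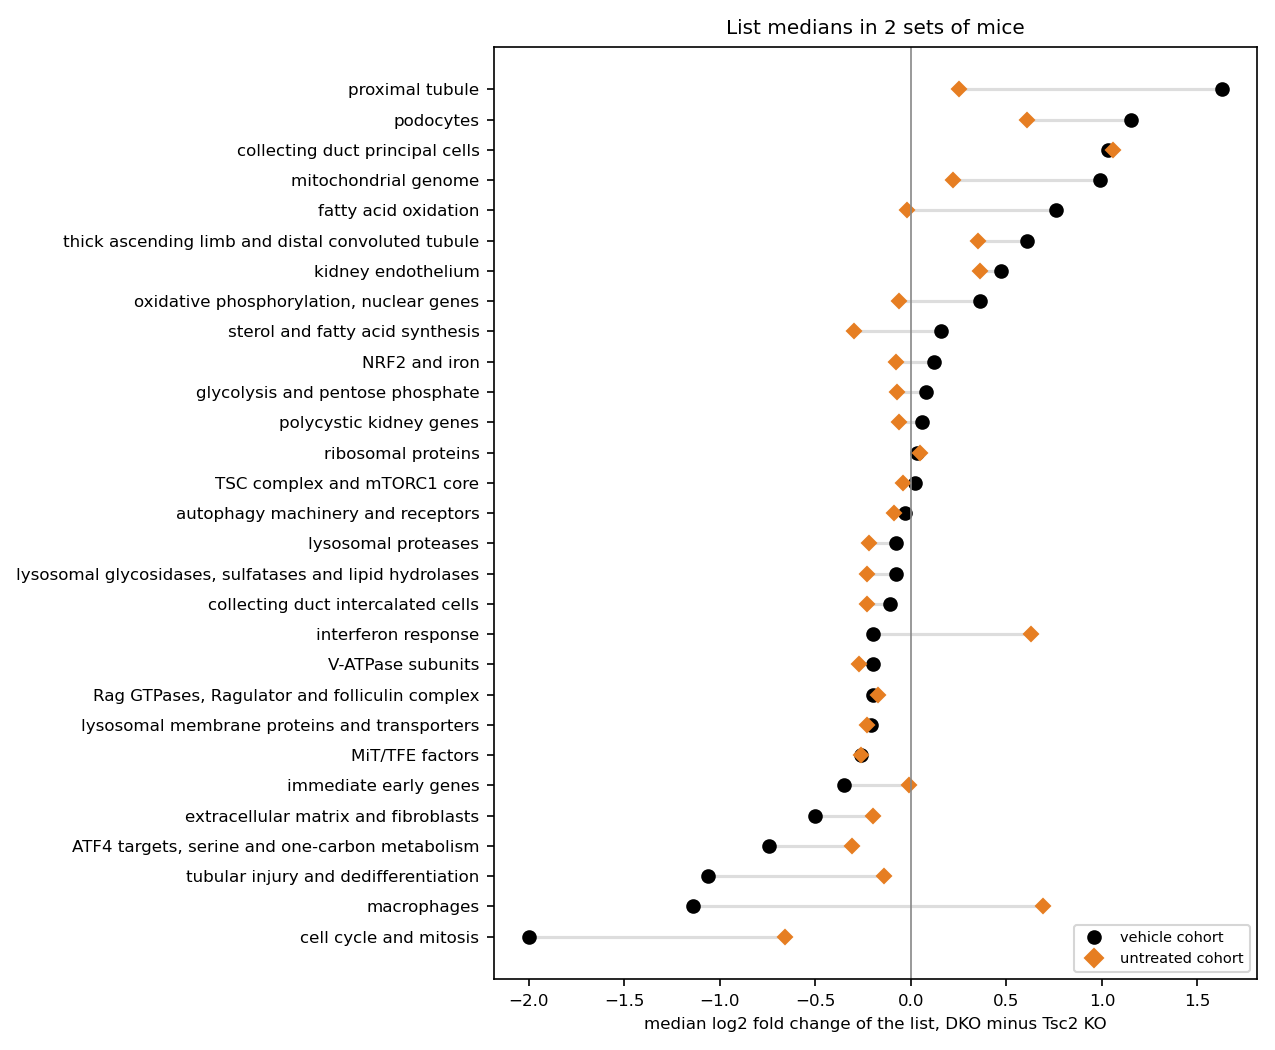
Median log2 fold change of each gene list between DKO and Tsc2 KO in the vehicle-treated cohort (black circles) and in the uninjected cohort (orange diamonds), which share no library. Both medians were negative for the cell cycle list and positive for the proximal tubule list, and the macrophage list lay at -1.14 in the vehicle cohort and 0.69 in the uninjected one.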

How the data were processed

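RNA-seq was analysed for 3 Tsc2 KO and 3 DKO kidneys of the vehicle-treated KspCre cohort. The authors deposited read counts per gene and FPKM values (fragments scaled by transcript length and library size, from the same libraries). Kits were poly-A and non-directional, so a gene and its antisense partner cannot be told apart. The submitters' processing notes name STAR 2.6.1d, HISAT2 2.0.5, featureCounts 1.5.0-p3, DESeq2 1.20.0 and mm10, with no roles. The annotation is not given in the sources used here. The tables of the tamoxifen-induced cohort were not used here.

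From the deposited counts, genes kept by filterByExpr were tested with edgeR 4.0.16 (R 4.3.3): TMM normalization, quasi-likelihood fit of all 18 libraries in 6 groups, Benjamini-Hochberg adjustment over 17027 genes. The standard error is the log2 fold change divided by the square root of the test statistic. A call needed an adjusted p of at most 0.05 together with a mean of 5 FPKM or more in Tsc2 KO or DKO kidneys. Genes were named by rule: Tsc2, Tfeb and 6 genes singled out by the study's text, the 10 largest falls and rises among protein-coding calls whose groups did not overlap and that kept an adjusted p of 0.05 with the adrenal covariate, leaving out Gm and Rik symbols, and up to 4 called members of each list with the smallest p, or 2 where none was called (133 in all). Members and lists were chosen with earlier results of these data known. The labels do not say that replicates came from separate animals, so p-values measure the spread between these samples. Alternatives were another normalization, filter, test (DESeq2 1.42.0), set of libraries or covariate, and fits without 1 of the 6 libraries. The test was tested on simulated data for this comparison (16744 genes, 200 changed), where it recovered 69% of 2-fold and 97% of 4-fold changes and 0.599% of calls were false. Simulated libraries of a group differed only by depth and random spread, with no extra adrenal transcripts in some. These rates therefore need not hold for the real calls. Promoter windows are from RefSeq tables for GRCm38.p6, matched by gene for 6041 of the 7949 genes reaching the FPKM minimum. Some named genes are not reported here.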

Additional observations from a re-analysis of the deposited data

Results flagged for a closer look

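Acss2, the acetyl-CoA synthetase of cytosol and nucleus, moved in opposite directions in the vehicle-treated and the uninjected cohort. With vehicle its log2 fold change (DKO minus Tsc2 KO) was 1.25, and every DKO library was above every Tsc2 KO library. Without injections it was -0.28, and every DKO library was below every Tsc2 KO library. The difference between the cohorts was not tested.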

How the results depend on the processing

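The counts of 1003 lower and 1345 higher genes stayed within 1.5 times under RLE normalization, no filter on low counts, DESeq2 or edgeR on fewer groups, an FPKM minimum in every library, and the adrenal sum or Xist as a covariate (697 to 1108 lower, 1014 to 1508 higher). Without an FPKM minimum there were 1710 lower and 2031 higher. Leaving out every library with an adrenal sum over 10 CPM, as planned, gave 64 lower and 267 higher genes and also dropped control rapamycin replicate 2. Leaving out only the 4 knockout libraries, an alternative chosen after seeing the data, gave 63 and 300, and lower genes then made 17.4% of calls in place of 42.7%. These fits compare 1 kidney with 1, the lone sample being assumed to vary like the other groups. Leaving out only the 2 libraries with the highest adrenal sums, also chosen after seeing the data, gave 685 and 1256. Leaving out 1 of the 6 libraries at a time gave 682 to 909 lower and 1015 to 1371 higher genes. Of the 133 named genes, 106 kept their direction and side of the threshold in every alternative other than those leaving out libraries for adrenal genes. In each fit without the adrenal-bearing libraries 49 kept both, 82 were no longer past the threshold, and 2 turned. Among those no longer past it, the log2 fold change without the 4 knockout libraries was 0.73 for Tsc2 (in place of 0.58), -1.12 for Tfeb (-1.07), -3.94 for Gpnmb (-4.77), -1.17 for Mthfd2 (-1.21), -0.47 for Rragc (-0.68) and -0.48 for Rragd (-0.73). In both fits without the adrenal-bearing libraries the log2 fold change turned to -0.07 for Atp6v0e2 and 0.66 for S100a9; the cause was not tested.

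The deviations of same-numbered libraries correlated at 0.092, -0.04 and 0.343, and those of libraries with different numbers at -0.323 to 0.179. So few values cannot decide whether the replicate numbers pair the samples. With the number as a replicate block 994 genes were lower and 1345 higher, of which 948 and 1302 were among those called without it.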
